A study of Homo sapiens with 6 samples.

Results

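The genes described are those of 2 families of cell guidance signals, the Eph receptors and their ephrin ligands, and the semaphorins with their plexin and neuropilin receptors. They were picked as families with earlier results of these data known, and within them the probes by name alone, as every probe outside the controls whose gene symbol in the scanner files belongs to the EPHA, EPHB, EFNA, EFNB, SEMA3 to SEMA7, or PLXNA to PLXND series, together with NRP1 and NRP2. This gave 81 probes for 53 genes, of 50599 probes on the array. They were 26 probes for 14 Eph receptors, 8 probes for 8 ephrins, 27 probes for 20 semaphorins, 14 probes for 9 plexins, and 6 probes for the 2 neuropilins.

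Ephrins sit in the membrane of one cell and bind Eph receptor tyrosine kinases on its neighbor, so the signal needs contact and can run in both directions. Class A ephrins are held by a lipid anchor and class B ephrins span the membrane. Semaphorins are secreted or membrane-bound proteins that bind plexins, and most secreted class 3 semaphorins bind plexins through a neuropilin. Both systems act on the actin cytoskeleton and adhesion through small GTPases. They are best known from growing axons, and epithelia use them to set boundaries between cells, adhesion, and movement.

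The samples were HSC-3, KON, and Ca9-22 cells, established lines derived from oral squamous cell carcinoma (OSCC). Each line was transiently transfected with control siRNA (siCtrl) or with siDLEU1-2, 1 of the siRNAs the study made against the long noncoding RNA DLEU1, and RNA was taken 72 h later. The question was which genes change when DLEU1 is knocked down. Each line and siRNA had 1 one-color array, 6 in all on 1 slide. The 3 lines were thus the only replicates, and a change within a line had no error of its own. The p-values for the siRNA measured how much the change varied between lines. Those between lines rested on that same variation, with the siCtrl and siDLEU1-2 arrays of a line as its replicates. All cells, controls included, had been transfected, no untransfected cells were among the arrays, and a single siRNA sequence stood for the knockdown. Levels below are the log2 of the processed signal of a probe minus the 75th percentile of that array, so that 0 is the 75th percentile of the array, and changes are siDLEU1-2 minus siCtrl within a line on the log2 scale. In bulk RNA of this kind, fewer cells that express a gene and less RNA per cell cannot be told apart.

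The antisense strand of siDLEU1-2, which guides silencing, is shown first because it is the agent that separates the groups. It has 21 bases, written 5′ to 3′, with its seed (bases 2 to 8), the stretch that can also pair with other transcripts, in capitals.
siDLEU1-2 antisense strand: uUAAGUGCgauaaccccugua
The letters that pair with this seed, GCACTTA, were in 0 of the 81 probes of these families and in 138 of all 50599 probes (0.273%). A probe covers 60 bases of a transcript, and the remaining bases were not searched. DLEU1 itself, read by 1 probe on chromosome 13 of hg19, lay at 1.39, 2.16, and 1.56 after siCtrl in HSC-3, KON, and Ca9-22, and at -2.71, -1.48, and -1.88 after siDLEU1-2. It fell by 3.72 ± 0.34 on the log2 scale (SD, n = 3 cell lines, limma adjusted p = 0.0227).

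Across the series, the signal at the 75th percentile was 200.5 to 256.8 per array, and 43% to 45.7% of probes passed the software's mark for well above background. All 7 squamous epithelial markers passed the background mark on all 6 arrays, and all 3 glial markers on none. The summed log2 level of the squamous list was 8.78 to 10.47 after siCtrl and 8.38 to 9.50 after siDLEU1-2, and 3 of its 7 markers fell, DSG3 by 2.12, KRT6A by 1.33, and SFN by 0.81 on the log2 scale (limma adjusted p = 0.0266, 0.0247, and 0.0470). The other 4 were not called, with mean log2 changes of 1.09 in EPCAM, which was higher in every line, -1.14 in KRT5, 0.14 in KRT17, and -1.72 to 0.01 over the 3 KRT14 probes. Of the 4 blood cell markers, only CD68 passed the mark on all 6, with a mean change of -1.39 (limma adjusted p = 0.0278), and the summed log2 level of that list was -0.12 to 2.33 after siCtrl and -0.06 to 0.88 after siDLEU1-2. The endothelial list had 0 of 3 markers above background on all arrays, with a summed log2 level of -1.68 to -0.08 after siCtrl and -1.04 to 0.83 after siDLEU1-2. Both neuronal markers, RBFOX3 and SYT1, were above background on all arrays, each on a single probe. A second RBFOX3 probe was above background only in Ca9-22, and a second SYT1 probe on no array. The summed log2 level of the neuronal list was 1.41 to 1.88 after siCtrl and 1.52 to 1.79 after siDLEU1-2. For the 4 fibroblast markers the summed log2 level was -0.45 to -0.18 after siCtrl and 0.73 to 1.54 after siDLEU1-2, with COL1A1 above background on all arrays and higher by 1.45 (limma adjusted p = 0.0423), and COL1A2 and PDGFRB on none. DCN was above background on the HSC-3 array of siDLEU1-2 only, and most of the fibroblast sum was COL1A1. The 3 arrays of each siRNA did not overlap in that sum, and the part of any of these markers in the results below was not tested.

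Of the 81 probes, 38 passed the background mark on all 6 arrays and 24 on none. Every probe of 9 genes was among these 24. They were the receptors EPHA5, EPHA6, EPHA7, EPHA8, and EPHA10, the ligand EFNA2, and the semaphorins SEMA3E, SEMA6A, and SEMA6D. The Eph receptors had 14 of 26 probes above background on no array, whereas every neuropilin probe was above background on at least 1 array. For the comparison of siRNAs, 44 probes (54.3%) of 33 genes were kept, having 1 or both arrays of each line well above background, against 39.4% of all probes. The other 37 probes were 24 seen on no array and 13 seen on 1 to 4 arrays, and 20 genes had no kept probe.

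**Figure D1:**
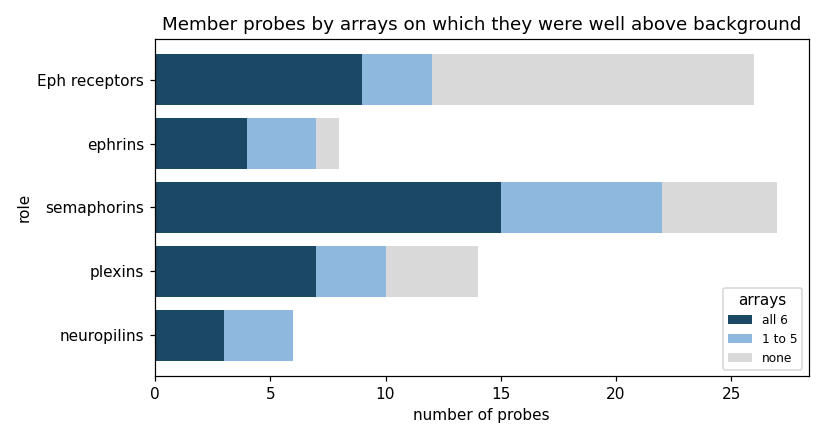
Number of probes (x axis) of each role (y axis) by the number of the 6 arrays on which they were well above background. Of 26 Eph receptor probes, 9 were above background on all 6 arrays and 14 on none, and of 27 semaphorin probes, 15 on all 6 and 5 on none.

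After DLEU1 knockdown, SEMA4A and PLXNB3 fell, and EPHA2 and 1 of the 2 SEMA4D probes rose. limma, blocked on cell line and adjusted by the Benjamini-Hochberg method over 19956 probes, thus called 2 of the 44 kept probes higher (4.55%), where 3.98% of all kept probes were called higher, and 2 lower (4.55%), where 4.52% of all were called lower. The share called in these families was therefore near that of the array in both directions. The remaining 40 probes were not called. Leaving out HSC-3 or KON, limma called none of the 44 probes and none of the 19956 probes (13 and 16 of the 44 had an unadjusted p under 0.05, and 4547 and 4676 of all). Without Ca9-22 it called SEMA4A, PLXNB3, and 1 NRP2 probe, 3 of the 44, beside 244 of the 19956 probes. Without the block limma called 0 of the 44, as did the methods' t-test, and limma with no filter on dim probes called 0 of the 81 (5, 2, and 18 had an unadjusted p under 0.05). In these settings 0 of all 19956, 19956, and 50544 probes were called as well, with 1357, 1373, and 6816 at an unadjusted p under 0.05.

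SEMA4A encodes a membrane-bound class 4 semaphorin that signals to immune and endothelial cells. Its probe, on chromosome 1 of hg19 from 156146532 to 156146591, lay at 0.30 with siCtrl against -2.03 with siDLEU1-2 in HSC-3, -0.11 against -2.48 in KON, and 0.35 against -0.89 in Ca9-22. All 3 arrays of siDLEU1-2 were below all 3 arrays of siCtrl. SEMA4A fell by 1.98 ± 0.64 on the log2 scale (SD, n = 3 cell lines, limma adjusted p = 0.0307), or 5.04-fold, 5.15-fold, and 2.36-fold by line in the order above. With normexp background correction the mean change was -1.24 (limma adjusted p = 0.0164). That correction added an offset of 50 to every signal, which makes the log2 changes of dim probes smaller.

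PLXNB3, a class B plexin and receptor of SEMA5A, was read by a probe on chromosome X from 153044726 to 153044785. It lay at -0.16 with siCtrl against -2.06 with siDLEU1-2 in HSC-3, -1.27 against -3.50 in KON, and 0.09 against -1.0 in Ca9-22. The fall held within each line, whereas the groups overlapped, since the Ca9-22 array of siDLEU1-2 was above the KON array of siCtrl. The mean change was -1.74 ± 0.59 (SD, n = 3 cell lines, limma adjusted p = 0.0330), with falls of 3.72-fold, 4.69-fold, and 2.12-fold in HSC-3, KON, and Ca9-22. With normexp it was -1.03 (limma adjusted p = 0.0169).

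EPHA2 encodes a receptor tyrosine kinase that is abundant in epithelia and binds class A ephrins, ephrin-A1 above all. The EPHA2 probe, whose ends lie at 16451800 and 16455972 on chromosome 1, lay at 0.28 with siCtrl against 1.48 with siDLEU1-2 in HSC-3, 1.02 against 1.89 in KON, and 1.15 against 2.05 in Ca9-22. Every array of siDLEU1-2 was above every array of siCtrl. The rise of 0.99 ± 0.18 (SD, n = 3 cell lines, limma adjusted p = 0.0331) was the most even among lines of the 4 called probes, at 2.30-fold, 1.83-fold, and 1.87-fold in HSC-3, KON, and Ca9-22. It was over 2-fold in HSC-3 only.

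SEMA4D encodes a membrane-bound semaphorin that can be shed from the cell and binds PLXNB1. The probe assigned to transcript NM_001142287, on chromosome 9 from 91976516 to 91976575, lay at -2.93 with siCtrl against -1.15 with siDLEU1-2 in HSC-3, -3.05 against -2.03 in KON, and -0.32 against 0.81 in Ca9-22. It was higher with siDLEU1-2 in each line, and the groups overlapped because both Ca9-22 arrays were high. Its mean change was 1.31 ± 0.41 (SD, n = 3 cell lines, limma adjusted p = 0.0346), and 0.70 with normexp (limma adjusted p = 0.0412). The probe of transcript NM_006378, from 91992924 to 91992983, lay at -1.56 against -1.74 in HSC-3, -1.80 against -1.70 in KON, and 0.63 against 0.41 in Ca9-22, a mean change of -0.10 ± 0.17 (limma adjusted p = 0.699). So the SEMA4D probes differed in whether they were called, and the mean of both gave 0.61 (limma adjusted p = 0.0744). The difference between the probes was not tested.

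**Figure D2:**
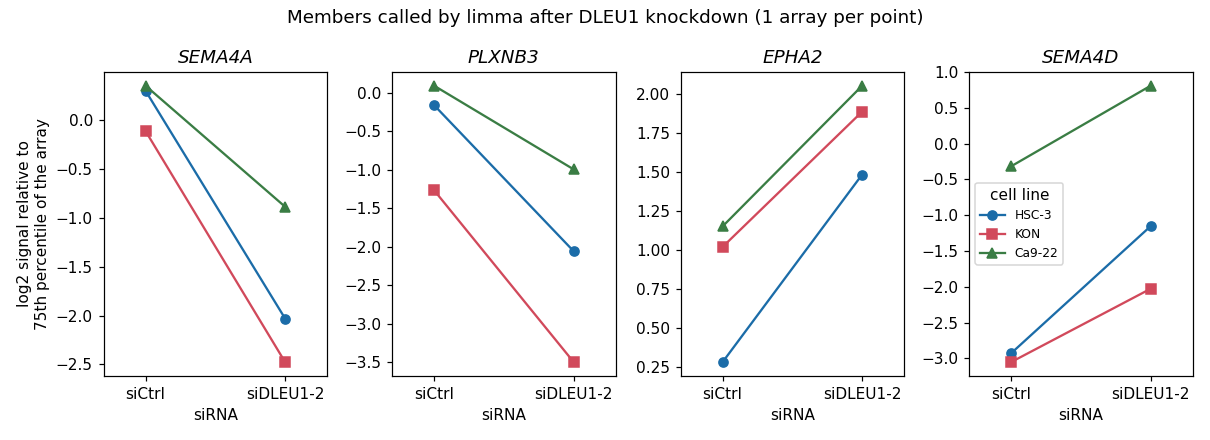
Level of each called probe on every array (y axis, log2 signal relative to the 75th percentile of the array) after siCtrl and siDLEU1-2 (x axis), with 1 point per array and a line joining the arrays of a cell line; y axes differ between genes. SEMA4A and PLXNB3 went down, and EPHA2 and the SEMA4D probe of NM_001142287 went up, in all 3 lines.

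By the fold rule, over 2-fold in the same direction in all 3 lines, 2 of the 44 probes were higher, where 2.08% of all kept probes were, and 2 were lower, where 2.08% were. SEMA4A and PLXNB3 were the 2 lower ones, and the SEMA4D probe of NM_001142287 and SEMA3D the 2 higher ones. With normexp background correction, whose offset makes changes of dim probes smaller, none of the 44 passed this rule. Over the other lines alone, 4 were higher and 3 lower without Ca9-22, and 3 and 2 without KON. Counts over all probes by this rule are not given for these settings. SEMA3D is a secreted class 3 semaphorin that acts through neuropilin 1. Its probe lay at -2.95 with siCtrl against -1.43 with siDLEU1-2 in HSC-3, -2.83 against -1.36 in KON, and -5.50 against -1.47 in Ca9-22. All siDLEU1-2 arrays were above all siCtrl arrays, and the Ca9-22 array of siCtrl was not well above background, so the difference in that line was at least 3.92-fold. The mean change of 2.34 ± 1.46 (SD, n = 3 cell lines) was not called by limma (adjusted p = 0.0744). With dim values raised to the lowest level well above background it was 1.65 (limma adjusted p = 0.0211), and with normexp background correction 0.91 (limma adjusted p = 0.0468).

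The promoters of the 4 called genes are shown so that their sequence can be read beside the direction of change. Each is the RefSeq window of GRCh38.p14 from 250 bases before to 50 bases after the annotated start, written 5′ to 3′ on the strand of the gene, and for SEMA4A it is the first of 4 windows listed. Capitals mark matches, on either strand, to 4 motifs searched, the GC box GGGCGG, the AP-1 motif TGANTCA, the E-box CAGGTG, and the TATA box TATAAA.
SEMA4A, fell, chr1:156149694-156149993, plus strand: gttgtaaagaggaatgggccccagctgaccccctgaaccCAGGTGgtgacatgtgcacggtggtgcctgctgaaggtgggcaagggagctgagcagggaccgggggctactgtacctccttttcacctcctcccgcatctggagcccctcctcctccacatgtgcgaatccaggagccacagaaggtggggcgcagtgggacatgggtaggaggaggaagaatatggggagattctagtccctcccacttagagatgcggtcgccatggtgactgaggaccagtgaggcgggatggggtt
PLXNB3, fell, chrX:153763999-153764298, plus strand: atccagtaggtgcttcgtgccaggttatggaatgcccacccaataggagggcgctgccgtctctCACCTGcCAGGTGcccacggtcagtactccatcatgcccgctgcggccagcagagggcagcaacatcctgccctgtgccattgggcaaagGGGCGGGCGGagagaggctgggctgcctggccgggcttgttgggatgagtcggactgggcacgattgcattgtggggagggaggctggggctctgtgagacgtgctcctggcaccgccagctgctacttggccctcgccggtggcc
EPHA2, rose, chr1:16156020-16156319, minus strand: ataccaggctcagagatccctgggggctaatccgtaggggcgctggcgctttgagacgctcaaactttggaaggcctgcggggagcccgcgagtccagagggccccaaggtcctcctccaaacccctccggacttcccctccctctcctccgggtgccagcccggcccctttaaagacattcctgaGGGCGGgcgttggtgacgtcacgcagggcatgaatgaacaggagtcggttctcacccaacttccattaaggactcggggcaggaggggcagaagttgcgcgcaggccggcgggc
SEMA4D, rose on 1 of 2 probes, chr9:89495607-89495906, minus strand: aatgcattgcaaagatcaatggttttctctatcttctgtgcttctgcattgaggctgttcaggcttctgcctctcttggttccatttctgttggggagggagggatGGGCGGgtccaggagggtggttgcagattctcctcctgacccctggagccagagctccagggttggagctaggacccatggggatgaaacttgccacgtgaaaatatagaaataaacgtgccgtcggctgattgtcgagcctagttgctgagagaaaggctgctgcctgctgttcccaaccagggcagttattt
The E-box was found in both genes that fell, 2 times in PLXNB3 and 1 time in SEMA4A, and in neither gene that rose. The GC box was found in PLXNB3, EPHA2, and SEMA4D, where the 2 matches of PLXNB3 overlap, and the other motifs in none of the 4 windows. Of the 53 genes, 47 had a window. Among these, the GC box was found in 38 (80.9%), against 44.6% of 27305 windows, 1 per gene, and the median GC content was 66.7% against 58.3%. The E-box was in 21.3% of the 47 windows and 20.6% of all, the TATA box in 2.13% and 12%, and the AP-1 motif in 2.13% and 7.76%. These matches are letters in a window and were not tested as sites.

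Among the 44 kept probes as a whole, 18 were higher after siDLEU1-2 in every line, 8 were lower in every line, and 18 were mixed, beside 5360 higher and 5334 lower in every line of the 19956 probes. Thus 26 (59.1%) had the same sign in all 3 lines, against 53.6% of all kept probes. The median log2 change was 0.25, against 0.01 over all kept probes, and taken line by line it was 0.22 for HSC-3, 0.18 for KON, and 0.41 for Ca9-22. The median size of the change, whatever its direction, was 0.50, against 0.29 over all kept probes. In 7 of the 44 probes every siDLEU1-2 array was above every siCtrl array, and in 1 every one was below, beside 1131 and 1070 of the 19956 probes.

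Of the 6 Eph receptors kept, 3 (EPHA2, EPHB2, and EPHB4, with 6 of the 9 kept probes) were higher by value in every line on all their probes and 1, EPHA4, was lower, and limma called EPHA2 alone. EPHB2, a receptor of class B ephrins, had 3 probes within a short stretch of chromosome 1 on the same transcript, NM_004442, with mean changes of 0.62 ± 0.15, 0.57 ± 0.24, and 0.63 ± 0.23 (SD, n = 3 cell lines, limma adjusted p = 0.0674, 0.0966, and 0.0779). The 3 EPHB2 probes gave nearly the same value but share a transcript, so they are not separate evidence. With normexp, limma called 2 of the 3 EPHB2 probes (adjusted p = 0.0458 and 0.0463). EPHB3, another receptor of class B ephrins, had log2 differences of -0.55, 2.59, and 0.89 in HSC-3, KON, and Ca9-22 (limma adjusted p = 0.351). EPHB4, the receptor of ephrin-B2, had mean changes of 0.21 and 0.24 on its 2 probes, EPHA1 of 0.16, and EPHA4, which binds ephrins of both classes, of -0.36, none of them called.

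EPHA3, a receptor of class A ephrins, was well above background only on the Ca9-22 array of siDLEU1-2. In Ca9-22 it read -5.55 with siCtrl against 0.83 with siDLEU1-2, at least 19.3-fold higher, and the 4 arrays of the other lines were not well above background. It was not tested, being seen on a single array, and a second EPHA3 probe was above background on no array.

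No ephrin was called, and 4 of the 8 ephrins were kept. EFNB1, a class B ephrin, lay at 5.39 with siCtrl against 3.77 with siDLEU1-2 in HSC-3, 4.73 against 3.29 in KON, and 3.71 against 3.58 in Ca9-22. The difference was over 2-fold in HSC-3 and KON and near 0 in Ca9-22, which had the lowest EFNB1 level after siCtrl, for a mean of -1.06 ± 0.81 (SD, n = 3 cell lines, limma adjusted p = 0.118). EFNB2, the ligand of EPHB4, differed by 0.70, 0.47, and 1.60 in HSC-3, KON, and Ca9-22 (limma adjusted p = 0.0987). EFNA1, the ligand of EPHA2, differed by 0.28, 0.31, and 0.78 (limma adjusted p = 0.159). EFNA4 had a mean change of 0.26, with KON at -0.05.

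The semaphorins were the largest role, with 18 kept probes, and the most mixed, since 5 probes were higher in every line, 2 lower in every line, and 11 mixed. SEMA5A, a transmembrane semaphorin with thrombospondin repeats and a ligand of PLXNB3, lay at -3.69 with siCtrl against 0.03 with siDLEU1-2 in HSC-3, 0.85 against 0.95 in KON, and -2.76 against -0.25 in Ca9-22. The HSC-3 array of siCtrl was not well above background, so the difference there was at least 12.2-fold, whereas the KON arrays were both high and differed by 0.10. SEMA5A was not called (limma adjusted p = 0.134). SEMA3B, a secreted semaphorin, was higher by 0.81, 1.15, and 0.55 in HSC-3, KON, and Ca9-22 (mean 0.83 ± 0.30, limma adjusted p = 0.0561). limma called SEMA3B where only probes above background on all 6 arrays were tested (adjusted p = 0.0413) and with normexp (adjusted p = 0.0368). Apart from SEMA4A and 1 SEMA4D probe, none of the 18 semaphorin probes was called. SEMA4B, SEMA4C, SEMA4F, and SEMA6C, which encode transmembrane semaphorins, had mean changes between -0.51 and 0.18.

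Among the plexins, 3 of 8 kept probes were higher in every line, 3 lower in every line, and 1, PLXNB3, called. PLXND1, the receptor of SEMA3E, lay at 0.15 with siCtrl against 3.58 with siDLEU1-2 in HSC-3, 0.64 against 2.0 in KON, and 1.82 against 2.52 in Ca9-22. Every siDLEU1-2 array was above every siCtrl array, and the changes of 3.43, 1.36, and 0.71 varied between lines and were not called by limma (mean 1.83 ± 1.42, SD, n = 3 cell lines, adjusted p = 0.111). PLXNB2, a receptor of class 4 semaphorins, had mean changes of 0.62 on both probes (limma adjusted p = 0.0853 and 0.0997). PLXNA1, PLXNB1, and PLXNB3 were lower in every line, with PLXNA1 at a mean of -0.54 and PLXNB1 at -0.47 (limma adjusted p = 0.221 and 0.186). PLXNA3 and PLXNA4 had means of 0.01 and -0.01, with lines on both sides of 0.

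**Figure D3:**
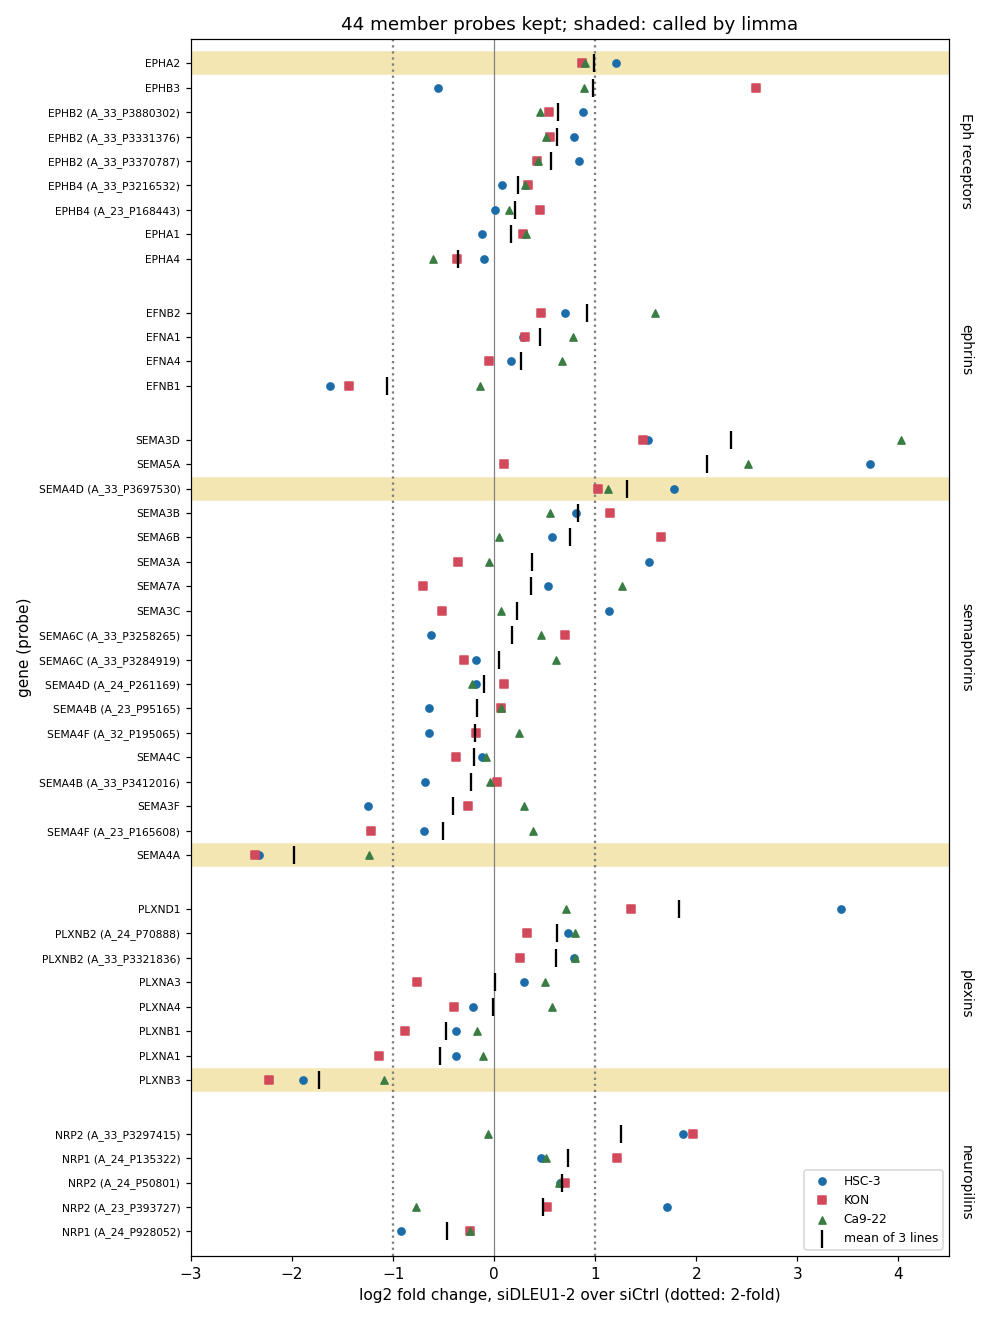
Change of each of the 44 kept probes (y axis, by role, with the probe name where a gene has several) after DLEU1 knockdown (x axis, log2 fold change, siDLEU1-2 over siCtrl), with 1 point per cell line and a bar at the mean of the 3 lines. Shaded rows are the 4 probes called by limma, and dotted lines mark 2-fold; SEMA5A and PLXND1 have wide spreads and EPHA2 a narrow one.

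The neuropilins, which bind class 3 semaphorins and vascular endothelial growth factors, showed values that depended on the probe. For NRP1, the probe of transcript NM_001024629 was higher by 0.47, 1.21, and 0.51 in HSC-3, KON, and Ca9-22 (mean 0.73 ± 0.42, limma adjusted p = 0.0971). The NRP1 probe of transcript NM_003873 was lower by value in every line, at -0.92, -0.24, and -0.24 (mean -0.47 ± 0.39, limma adjusted p = 0.202). So the 2 kept NRP1 probes had differences of opposite sign in every line, neither was called, and their difference was not tested.

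NRP2 had 3 kept probes. That from 206608080 to 206608139 on chromosome 2 was higher by 0.65, 0.70, and 0.65 in HSC-3, KON, and Ca9-22, a mean of 0.67 ± 0.03 (SD, n = 3 cell lines, limma adjusted p = 0.0517). It was the most even change of the 44 probes and was called where only probes above background on all 6 arrays were tested (limma adjusted p = 0.0387). The NRP2 probe from 206562385 to 206562444 lay at -3.74 with siCtrl against -1.86 with siDLEU1-2 in HSC-3, -1.87 against 0.09 in KON, and -1.63 against -1.69 in Ca9-22. It was over 2-fold higher in HSC-3, where the siCtrl array was not well above background and the bound is at least 3.29-fold, and in KON, but not in Ca9-22 (limma adjusted p = 0.151). The last NRP2 probe, of transcript NM_201266, was at least 2.63-fold higher in HSC-3, where the siCtrl array was not well above background, and differed by 0.53 in KON and -0.78 in Ca9-22.

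**Figure D4:**
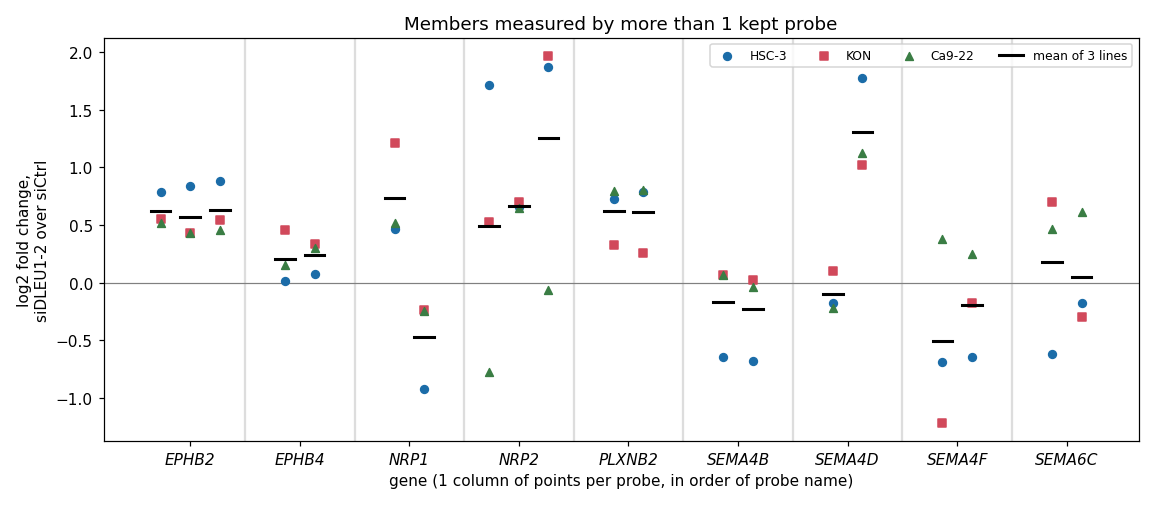
Change of the 9 genes read by more than 1 kept probe (y axis, log2 fold change, siDLEU1-2 over siCtrl), with a column of 3 points per probe, 1 per cell line, and a bar at their mean. The probes of EPHB2, PLXNB2, and SEMA4B lie close together, whereas those of NRP1 and SEMA4D lie apart.

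Genes that act with or below these receptors were read from a list of 64 genes, of which 52 were kept with 73 probes. limma called 2 of the 73 probes higher and 2 lower (2.74% each), beside 3.98% and 4.52% of all kept probes. Both ROCK2 probes fell. ROCK2, a kinase below RhoA that drives contraction of actin and myosin, lay on its first probe at 0.71, -0.31, and 0.95 after siCtrl in HSC-3, KON, and Ca9-22, and at -0.55, -1.28, and -0.51 after siDLEU1-2, with the siRNA groups not overlapping. Its mean changes were -1.23 ± 0.24 and -0.86 ± 0.14 on the 2 probes (SD, n = 3 cell lines, limma adjusted p = 0.0297 and 0.0388). GIPC1, an adaptor that binds the tail of neuropilin 1, rose by 1.02 ± 0.26 (limma adjusted p = 0.0368). ARHGEF15, a RhoA exchange factor that acts downstream of EphB receptors, rose by 1.29 ± 0.48 (limma adjusted p = 0.0421). The other 69 partner probes were not called. Leaving out HSC-3, KON, or Ca9-22, limma called none of the 73 (9, 16, and 11 had an unadjusted p under 0.05). Over all kept probes it called 0, 0, and 244 of 19956 in these settings.

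The lines differed in the level of some of these guidance genes. For this comparison, 51 probes of 40 genes were kept, being above background on both arrays of at least 1 line. A moderated F test in limma, with the siRNA as a term, called 22 of them (43.1%) in 21 genes, where 55% of all 23700 probes tested were called. Among the 22 were the probes of EPHB6, SEMA5B, and SEMA3G, which passed the filter through the 1 line where they were high and were below background on every array of the other lines, so that they had to differ, and without these 3 the count was 19 of 48. The 55% over all probes still includes probes that passed in this way, and no share without them is given here. By role, these 19 were 3 of 9 Eph receptor probes, 4 of 7 ephrin probes, 7 of 18 semaphorin probes, 3 of 9 plexin probes, and 2 of 5 neuropilin probes. The 10 genes with the smallest p, which include EPHB6, SEMA5B, and SEMA3G, are described next. Each line had 2 arrays, 1 per siRNA, and of the 51 the count fell to 16 without HSC-3, 14 without KON, and 13 without Ca9-22. Over all 23700 probes it fell from 13036 to 7349, 7145, and 7289 in the same settings.

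Among ephrins, EFNB3, a class B ephrin, read 0.54 with siCtrl against 1.0 with siDLEU1-2 in Ca9-22, -2.39 against -2.40 in HSC-3, and -3.83 against -3.40 in KON, where it was not well above background. Ca9-22 was high and HSC-3 lower, with no overlap, and KON has only a bound. EFNB3 was 8.98-fold higher in Ca9-22 than in HSC-3 (limma adjusted p = 0.00265), and at least 20.9-fold higher than in KON (limma adjusted p = 0.00141). EFNA1 ran the other way, 4.30 against 4.58 in HSC-3, 3.07 against 3.37 in KON, and 1.72 against 2.5 in Ca9-22. All 3 pairs of lines differed for EFNA1, which was 5.03-fold higher in HSC-3 than in Ca9-22 (limma adjusted p = 0.00478).

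EPHB6, an Eph receptor without kinase activity, was well above background in KON alone. It read -1.20 with siCtrl against -1.10 with siDLEU1-2 in KON, -5.58 against -4.53 in HSC-3, and -5.42 against -5.23 in Ca9-22, which put KON at least 5.40-fold above HSC-3 and at least 4.63-fold above Ca9-22. The transmembrane semaphorin SEMA5B read -2.35 against -1.41 in KON, -5.57 against -5.15 in HSC-3, and -5.43 against -5.27 in Ca9-22. KON was also the only line well above background for SEMA5B, at least 3.26-fold over HSC-3 and at least 2.80-fold over Ca9-22. A second SEMA5B probe was above background on no array.

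SEMA3G, a secreted class 3 semaphorin, was well above background in Ca9-22 alone, at -1.59 after siCtrl and -0.80 after siDLEU1-2. It read -5.74 against -5.77 in HSC-3 and -6.00 against -5.65 in KON, which gives at least 5.25-fold and at least 5.60-fold. SEMA4D was also high in Ca9-22, on both its probes. Its line means were -1.65, -1.75, and 0.52 in HSC-3, KON, and Ca9-22 on the probe of NM_006378, and -2.04, -2.54, and 0.25 on that of NM_001142287. The difference between HSC-3 and KON did not pass the test on either SEMA4D probe (limma adjusted p = 0.694 and 0.190).

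SEMA3F, a secreted semaphorin that binds neuropilin 2, was low in KON, at -2.21 after siCtrl and -2.47 after siDLEU1-2, against 1.79 against 0.54 in HSC-3 and 0.25 against 0.54 in Ca9-22. It was 11.4-fold lower in KON than in HSC-3 (limma adjusted p = 0.00750), while HSC-3 and Ca9-22 both read 0.54 with siDLEU1-2 and their difference did not pass the test (limma adjusted p = 0.198). SEMA7A, a lipid-anchored semaphorin that binds integrins, had the reverse order for HSC-3 and KON. It read -2.02 against -1.49 in HSC-3, 2.56 against 1.86 in KON, and 0.26 against 1.52 in Ca9-22, so that KON was 15.6-fold above HSC-3 (limma adjusted p = 0.00899), and the difference between KON and Ca9-22 did not pass the test (limma adjusted p = 0.107).

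SEMA4C, a membrane-bound ligand of PLXNB2, was high in all lines and stepped down from HSC-3, at 5.66 and 5.53, to KON, at 5.08 and 4.71, and Ca9-22, at 4.03 and 3.94. Each pair of lines differed for SEMA4C, by 3.05-fold between HSC-3 and Ca9-22 (limma adjusted p = 0.00735). The NRP1 probe of NM_003873 read 0.70 with siCtrl against -0.22 with siDLEU1-2 in HSC-3, 1.08 against 0.84 in KON, and -0.94 against -1.18 in Ca9-22. Ca9-22 was lowest, 4.04-fold below KON (limma adjusted p = 0.00889), and the difference between HSC-3 and KON did not pass the test (limma adjusted p = 0.0884). The NRP1 probe of NM_001024629 was not called between lines (limma adjusted p = 0.133).

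**Figure D5:**
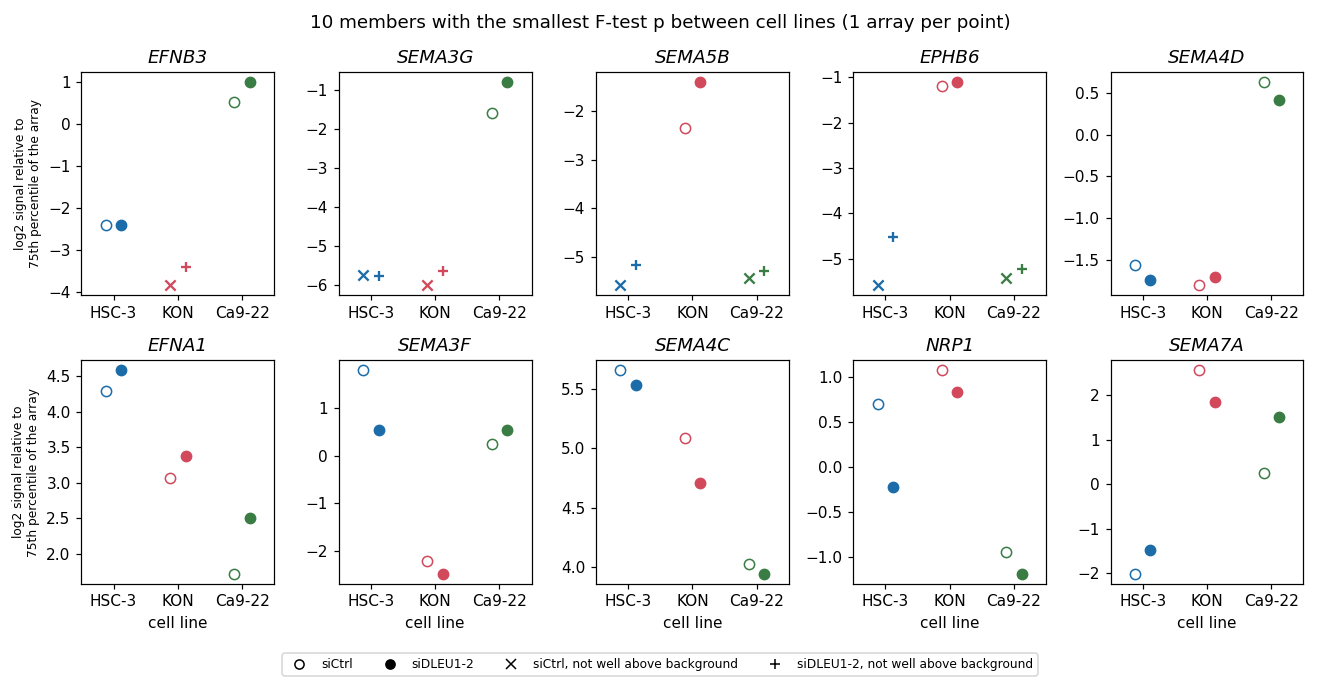
Level on every array (y axis, log2 signal relative to the 75th percentile of the array) in each cell line (x axis) for the 10 genes with the smallest p between lines, with SEMA4D and NRP1 shown by the probes of NM_006378 and NM_003873; y axes differ between genes, and crosses mark arrays not well above background. EFNB3, SEMA3G, and SEMA4D are highest in Ca9-22, and EPHB6 and SEMA5B are above background in KON alone.

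Beyond these 10, limma called EPHA4, EFNA3, SEMA3B, PLXNB3, EPHA1, PLXNA3, SEMA6C, NRP2, EFNB2, EPHB2, and PLXNB1, with adjusted p from 0.0129 to 0.0481. EPHB2, NRP2, and SEMA6C were each called on a single probe. Their other probes were not called (limma F adjusted p = 0.146 and 0.0805 in EPHB2, 0.318 and 0.0894 in NRP2, and 0.473 in SEMA6C). Of the 4 genes called for the siRNA, SEMA4D and PLXNB3 were thus also called between lines, while SEMA4A and EPHA2 were not (limma adjusted p = 0.123 and 0.0593). PLXNB3 was lowest in KON, at line means of -1.11, -2.38, and -0.45 in HSC-3, KON, and Ca9-22.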

How the data were processed

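RNA (100 ng) from HSC-3, KON, and Ca9-22 cells, 72 h after transfection, was labeled and hybridized to one-color arrays of 60-base probes. The authors deposited the scanner output of Agilent Feature Extraction 10.7, in which the spot intensity is background-subtracted and spatially detrended but not normalized between arrays, and their series table holds the same intensity to within 0.497%. The study's methods name GeneSpring GX, and its normalization is not given in the sources used here. No spot was saturated. The number of arrays limits the precision.

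From these intensities, log2 minus the 75th percentile of each array was taken, outlier and control spots were left out, and spots of a probe were averaged. Of 50599 probes, 55 lacked a usable spot on some array and were not tested. The software's mark for well above background had to hold for 50% or more of the spots of a probe. limma 3.58.1 (R 4.3.3) was fitted with siRNA and cell line as terms, with Benjamini-Hochberg adjustment over all probes kept. The block comes from the cell line: deviations of the 2 arrays of a line correlated at 0.828, 0.813, and 0.822. A level not well above background has only a bound, computed against, on each array, the higher of the lowest level well above background and the reading of the probe itself. The script was tested on simulated data. Alternatives changed the normalization, background correction, filter, test, probe summary, fold threshold, or lines. Coordinates of probes were taken from the scanner files (hg19), and exon or UTR positions were not analysed here. The members and gene lists were chosen with earlier results of these data known. Genes were named where called for the siRNA, over 2-fold in all or 2 lines, or among the 10 with the smallest p between lines, together with their second probes, all partner genes called, and members above background on no array. EPHA3, EPHB2, EPHB3, EPHB4, EPHA1, EPHA4, EFNB2, EFNA1, EFNA4, SEMA3B, SEMA4B, SEMA4C, SEMA4F, SEMA6C, PLXNB2, other plexins, NRP1, and NRP2 were named in the siRNA comparison after their values were seen, as were the further genes called between lines.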

Additional observations from a re-analysis of the deposited data

Results flagged for a closer look

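PLXNA2, a receptor of class 3 semaphorins, gave log2 differences of opposite sign between lines after DLEU1 knockdown, at -1.27, 1.41, and 1.22 in HSC-3, KON, and Ca9-22. Only that of HSC-3 was measured on both sides, at -2.01 with siCtrl against -3.28 with siDLEU1-2. In Ca9-22 the siCtrl array was not well above background, so siDLEU1-2 was at least 2.12-fold higher there. Neither KON array was well above background, so its value has no direction. The difference between lines was not tested.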

How the results depend on the processing

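No direction of the 5 genes SEMA4A, PLXNB3, EPHA2, SEMA4D (the probe of NM_001142287), and SEMA3D was reversed under any alternative run. The cell line is the pairing here, and with no replicate block limma called 0 probes higher and 0 lower among the members, and 0 and 0 among the signaling partners, with 5 member and 5 partner probes at an unadjusted p under 0.05. The methods' t-test called 0 in each of these, with 2 of the 44 member probes at an unadjusted p under 0.05 and 4 partner probes, and so did limma with no filter on dim probes, with 18 of 81 member probes and 20 partner probes under 0.05. Each of these settings, and limma with no block, called 0 of all probes tested as well. Against 2 members called higher and 2 lower, the higher count was 4 with dim values set to the detection floor or only probes above background on all 6 arrays, 6 with normexp, and 1 with probes averaged by gene, and leaving out 1 line gave 0 to 1 higher and 0 to 2 lower. Over all 19956 probes, the 1697 called became 1941 with the floor and 2308 with normexp. Of 18094 probes above background on all 6 arrays, 2065 were called. Leaving out HSC-3, KON, or Ca9-22 left 0, 0, and 244 of the 19956. Partners called higher were 1 with centering on the median, and 0 higher and 0 lower without any 1 of the lines. The count over 2-fold higher in all lines, 2, became 0 with a 3-fold threshold or normexp, 1 with centering on the median, quantile normalization, or only probes above background on all 6 arrays, and 2 to 4 without 1 line, and that over 2-fold lower, 2, became 0 with the 3-fold threshold or normexp. Probes that differed between lines, 22, were 14 with no filter and 13 to 16 without 1 line. Over all probes, 13036 of 23700 became 8258 of 50544 with no filter and 7145 to 7349 of 23700 without 1 line. The cause was not tested. SEMA4A changed by -2.35 to -1.24 over the alternatives (limma adjusted p 0.0164 to 0.332), PLXNB3 by -2.06 to -1.03 (0.0169 to 0.696), EPHA2 by 0.88 to 1.05 (0.0187 to 0.624), SEMA4D by 0.70 to 1.45 (0.0229 to 1.0), and SEMA3D by 0.91 to 2.78 (0.0211 to 0.531). Dim probes limit what can be said: 37 of the 81 probes were left out of the siRNA comparison, and 30 of them of the comparison between lines as well.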
